A study of Mus musculus with 4 samples.

Results

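A set of 10 genes of the NF-κB system was followed through the leukocytes of mouse melanomas. Its members were the 5 subunits Nfkb1, Nfkb2, Rel, Rela and Relb, the inhibitors Nfkbia, Tnfaip3 and Tnip1, the IκB family gene Nfkbiz, and the cytokine gene Tnf. They were chosen by name, as 10 of the 32285 genes in the deposited table, and all 10 were found there. The cells came from melanomas of the line 20967, which was derived on the C57BL/6 strain with the allele Nras+LSL-G12D and the transgene Tyr::CreERT2+/o, whose Cre is under a melanocyte promoter, and was grown intradermally in wild type C57BL/6 mice. Both groups therefore carried the same tumor line in immunocompetent hosts. The 5 control tumors received the control drug, which was a topical emollient cream per the study's methods, and the 5 glucocorticoid (GC) tumors received clobetasol propionate, a potent synthetic GC, as an ointment on the skin. The ages of the mice are not given in the sources used here.

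Live CD45+ cells were sorted from each tumor, labelled with 1 hashtag antibody per tumor, pooled within the group and run on a single 10x channel per group. The channel and the treatment are thus the same split and cannot be told apart. The tables held 3803 control and 305 GC cells in 16 clusters named by the authors, with 347 to 1250 cells per control tumor and 18 to 111 per GC tumor, and no cell barcode was shared between the channels. The median number of unique molecular identifiers (UMIs) per cell was 7440 in control and 9163 in GC cells. Levels below are UMIs of a gene per 10000 UMIs of a cell, averaged over the cells of a tumor, and the tumor is the replicate. The replicates are tumors of separate mice, carried through 1 library per group.

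NF-κB proteins bind DNA as dimers of the 5 subunits. In resting cells they are held in the cytoplasm by IκB proteins, of which IκBα (Nfkbia) is the best known, and stimuli such as TNF activate kinases that mark IκB for destruction and set the dimers free. Several inhibitors are themselves NF-κB targets and so form negative feedback, among them IκBα and the ubiquitin-editing enzyme A20 (Tnfaip3). GCs act through the glucocorticoid receptor, which is widely known to restrain NF-κB signaling, and Nfkbia and Tnfaip3 are both known as GC-responsive genes in some cells.

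The stretches of DNA just before the transcription start are shown for the 3 members that differed between groups in CD8 T cells and for Tnf, because NF-κB sites in such promoters are the basis of the feedback described above. They are the 250 bases before the start of a RefSeq transcript (build GRCm38.p6), 5′ to 3′ on the strand of the gene, with matches to the NF-κB consensus on either strand in capitals.
Tnfaip3, minus strand, chr10:19015411-19015660: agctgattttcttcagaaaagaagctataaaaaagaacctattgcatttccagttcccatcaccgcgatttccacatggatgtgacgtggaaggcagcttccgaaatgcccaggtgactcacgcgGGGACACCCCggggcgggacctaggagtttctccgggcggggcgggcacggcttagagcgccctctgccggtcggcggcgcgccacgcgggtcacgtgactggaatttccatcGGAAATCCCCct
Nfkbia, minus strand, chr12:55492648-55492897: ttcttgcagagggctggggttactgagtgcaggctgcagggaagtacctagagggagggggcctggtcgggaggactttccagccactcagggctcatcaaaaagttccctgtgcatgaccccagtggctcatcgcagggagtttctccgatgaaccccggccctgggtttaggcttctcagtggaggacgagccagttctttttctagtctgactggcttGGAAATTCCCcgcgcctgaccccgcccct
Nfkb2, plus strand, chr19:46304487-46304736: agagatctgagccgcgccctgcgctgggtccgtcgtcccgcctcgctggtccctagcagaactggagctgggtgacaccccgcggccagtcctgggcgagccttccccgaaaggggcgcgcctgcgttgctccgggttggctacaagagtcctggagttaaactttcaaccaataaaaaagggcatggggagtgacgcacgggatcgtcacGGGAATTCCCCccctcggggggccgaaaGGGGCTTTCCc
Tnf, minus strand, chr17:35202008-35202257: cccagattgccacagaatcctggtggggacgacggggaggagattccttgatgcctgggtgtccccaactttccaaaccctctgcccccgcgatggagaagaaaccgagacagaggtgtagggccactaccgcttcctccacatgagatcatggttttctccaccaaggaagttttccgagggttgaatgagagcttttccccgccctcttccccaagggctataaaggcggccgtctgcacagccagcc
The window of Tnfaip3 held 2 matches, starting 125 and 12 bases before the transcription start, and that of Nfkbia held 1, starting 29 bases before it. The window of Nfkb2 held overlapping matches from 39 bases and a further match 11 bases before the start, and it lies within AC114539.1, a gene on the opposite strand. No match to the consensus was found in the Tnf window. Only these short windows were searched, with a single NF-κB consensus, so sites further upstream or with other letters were not looked for. RefSeq gives a second start for Tnfaip3, whose window held no match, and 2 further starts for Nfkb2, whose windows each held a match. RefSeq promoters of 300 bases, which run 50 bases past the start, were found for 7 of the 10 members, all but Nfkb1, Relb and Nfkbiz. The consensus was present in those of 5 of the 7 members, which were Nfkb2, Rel, Nfkbia, Tnfaip3 and Tnip1, against 9.55% of 27025 genes. A gene can have several promoters, and counted per promoter it was present in 7 of 10, against 8.46% of 32851. The glucocorticoid response element consensus was present in 0 of the 7 and in 3 promoters of the whole set. A match to a consensus describes the letters in the window and is not evidence of binding.

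In control tumors, 4 of the 5 subunit genes (all but Rela) had their highest level in the dendritic cell cluster DC 1. The inhibitor genes and Nfkbiz had theirs in eosinophils (Nfkbia and Tnfaip3), neutrophils (Nfkbiz) or Tregs (Tnip1). These levels are given over the 13 clusters in which at least 2 control tumors held 10 or more cells, as mean ± SD over tumors, and they are a description with no test, since the clusters were made from the same cells. The cluster names matched their fixed markers in most cases. Exceptions were Monocytes 3, with 3 of 5 monocyte markers above the median of the other clusters, eosinophils, in which Epx was at 0, and DC 1, in which Siglech was at 0 and Ccr7 and Fscn1 had the highest levels of the 6 dendritic cell markers.

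Nfkb1, which encodes the p105 precursor of p50, had its highest level in DC 1, at 25.6 ± 3.4 (SD, n = 4). CD8 2 followed with 16.8 ± 4.4, then Tregs with 16.5 ± 1.3 and eosinophils with 15.1 ± 1.1 (n = 5 each). TAMs were lowest at 5.11 ± 0.60. The tumors of DC 1 (22.8 to 30.4) stood above those of CD8 2 (11.0 to 21.6), whereas CD8 2, Tregs and eosinophils overlapped.

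Rel, the c-Rel subunit of lymphocyte and dendritic cell activation, was again highest in DC 1, at 26.0 ± 1.6. All 4 DC 1 tumors (24.2 to 28.0) exceeded every tumor of the next cluster, DC 2, which had 12.4 ± 4.4. Tregs had 9.74 ± 1.86 and CD8 2 had 8.43 ± 2.97, while CD8 3 was lowest at 2.04. The range between the highest and the lowest cluster was 12.7-fold.

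Relb, the transactivating partner of p52 in the non-canonical pathway, had 7.02 ± 1.23 in DC 1 and 1.77 ± 0.47 in the next cluster, Tregs. The tumors of the 2 clusters did not overlap (at least 5.22 against at most 2.58). The other 11 clusters lay down to 0.71 in TAMs, with no neighbors in the order standing apart.

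Nfkb2, which encodes the p100 precursor of p52, was low throughout, from 1.73 ± 0.39 in DC 1 to 0.163 in CD8 3. Rela, the p65 subunit of the classical dimer, varied least among the subunits. It ranged from 1.53 ± 0.64 in eosinophils to 0.477 in CD8 3, a 3.22-fold range in which no neighboring clusters stood apart. For Nfkb2 the tumors of TAMs (mean 0.555) stood above those of CD8 1 (0.400) and those of NK cells (0.387) above CD8 3, and the other 10 neighbors in its order overlapped.

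Nfkbia reached 37.3 ± 2.8 in eosinophils and 28.0 ± 7.9 in neutrophils, which overlapped each other. Tregs followed with 14.7 ± 0.85, below every neutrophil value (17.8 to 39.3) and above every tumor of Monocytes 1, which had 9.25. NK cells were lowest at 3.79 and TAMs had 4.13. Granulocytes thus carried the highest levels of this inhibitor as a share of UMIs, with eosinophils 9.86-fold above NK cells. Control eosinophils were shallow, with median UMIs per cell of 824.5 to 898 over tumors. In neutrophils these medians were 3906 to 4482.5, and in NK cells of tumors with 10 or more cells 7784.5 to 9868.5. A high share in granulocytes, also for Tnfaip3 and Nfkbiz, therefore need not mean more UMIs per cell.

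Nfkbiz encodes IκBζ, a nuclear IκB protein that acts on secondary NF-κB target genes. It had much the same order, with 24.5 ± 6.0 in neutrophils, 17.3 ± 1.8 in eosinophils and 7.09 ± 1.25 in Tregs. Eosinophils stood above Tregs in every tumor, and NK cells were again lowest at 2.25.

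Tnfaip3 differed from Nfkbia and Nfkbiz in that CD8 2 and CD8 1 followed eosinophils in its order. Eosinophils had 24.1 ± 2.7, CD8 2 had 17.8 ± 2.1 and CD8 1 had 12.8 ± 0.8, with eosinophils standing apart from CD8 2 and CD8 2 from CD8 1. CD8 1, Tregs, CD4, CD8 3, neutrophils and NK cells then ran in overlapping order down to 7.50. A gap separated NK cells from the monocyte, dendritic cell and macrophage clusters, which lay between 3.18 in Monocytes 1 and 1.90 ± 0.29 in TAMs. Tnip1, which encodes the A20-binding protein ABIN1, ranged from 1.76 ± 0.30 in Tregs to 0.429 in Monocytes 2 with no neighbors standing apart.

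Tnf was the sparsest member. Its mean was 1.07 ± 0.56 in neutrophils, 0.456 in CD8 1, 0.454 in eosinophils, 0.320 in CD8 2 and 0.188 in TAMs. No neighboring clusters stood apart, since the neutrophil tumors alone ran from 0.468 to 1.91. DC 1 gave 1 UMI of Tnf in 97 control cells. A few cells set the neutrophil values, with 10 of the 20 UMIs of control tumor 3 and 13 of the 15 of control tumor 5 in a single cell each.

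**Figure D1:**
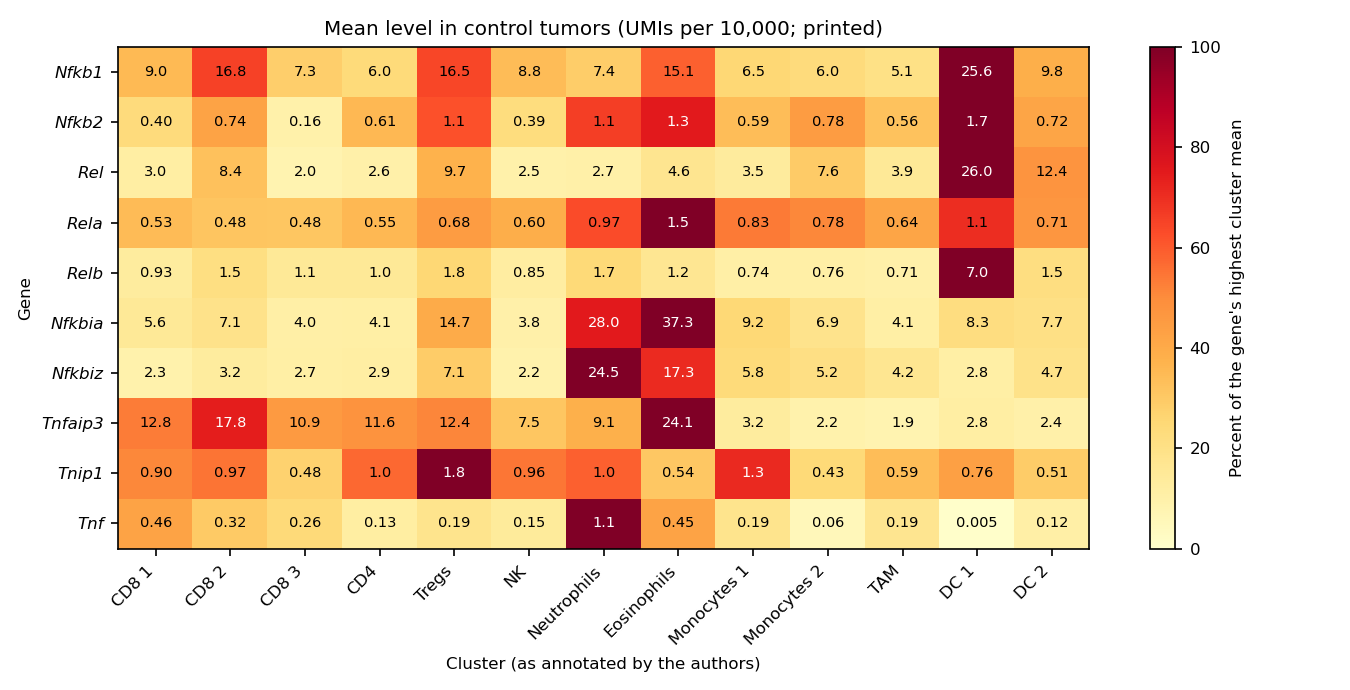
Mean level of the 10 genes (rows) in 13 clusters (columns) of the control tumors, in UMIs per 10000, printed in each cell and colored as a percentage of the highest cluster mean of that gene. The subunit genes Nfkb1, Rel and Relb peak in DC 1 (25.6, 26.0 and 7.02), while Nfkbia and Tnfaip3 peak in eosinophils (37.3 and 24.1) and Nfkbiz and Tnf in neutrophils (24.5 and 1.07).

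Across the 13 clusters, the members fell into different patterns. On the scale of log2(mean + 0.1), Nfkbia and Nfkbiz had a Pearson r of 0.911, Nfkb1 and Relb 0.791, Rel and Relb 0.717 and Nfkb1 and Rel 0.700, while Rel and Tnf had -0.574. Of 4214 genes ranked, those most like Nfkbia were Pim1 (0.938), Birc3 (0.916) and the member Nfkbiz. Those most like Nfkbiz were Ell2 (0.963), Dusp1 (0.941) and Pim1 (0.935). Ptpn2 (0.938), Nr4a3 (0.895) and Myo10 (0.862) were most like Nfkb1, and Txnip (0.877), Rlf (0.867) and Slc16a6 (0.844) were most like Tnf. The points are clusters that share the same 5 tumors and 1 library and differ in depth per cell, so these values describe likeness and carry no p.

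The comparison of GC with control tumors addresses what GC treatment did to gene expression in tumor leukocytes. As a check on the labels, the GC-induced genes Fkbp5, Klf9 and Tsc22d3 were higher in GC cells by log2 differences of 1.40, 1.44 and 1.5 among CD8 T cells and of 3.04, 2.68 and 2.28 among TAMs, all with adjusted p under the threshold of 0.05 by limma. In neutrophils Fkbp5 (2.53) and Klf9 (3.35) rose, and Tsc22d3 was 0.46 higher with adjusted p = 0.533. In monocytes, with 1 GC tumor, Fkbp5 (2.59), Klf9 (2.15) and Tsc22d3 (1.73) were higher. In eosinophils, also with 1 GC tumor, Fkbp5 (3.46) and Klf9 (4.80) were higher but Tsc22d3 was lower (-1.05). Only tumors with at least 10 cells of a class entered its test, so the GC group had 3 tumors in the CD8 test, 2 in that of TAMs and of neutrophils, and 1 in those of monocytes and eosinophils. Changes are differences of log2(mean per 10000 + 0.1), GC minus control, and adjusted p-values are those of limma with Benjamini-Hochberg adjustment over all genes tested in the class unless edgeR is named.

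In CD8 T cells (clusters CD8 1 to CD8 3), 3 of the 10 members rose after GC and 0 fell, against a background of 5.02% of 6158 genes called in either direction and 2.27% called higher. The 3 were the inhibitors Tnfaip3 and Nfkbia and the subunit Nfkb2. The share of higher genes among all calls depended on the scaling, at 45.3% by limma and 64.5% by edgeR, and 3.86% of all genes were called higher by edgeR.

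Tnfaip3 was at 15.3, 13.9, 14.7, 13.1 and 13.9 in control tumors 1 to 5 and at 19.7, 16.5 and 23.6 in GC tumors 2, 3 and 5. All 3 GC tumors lay above all 5 controls, as did 5.7% of all genes tested. The mean rose from 14.2 ± 0.836 (SD, n = 5) to 19.95 ± 3.53 (SD, n = 3), a log2 change of 0.48 ± 0.12 (SE) with adjusted p = 0.0411 by limma and 0.00446 by edgeR.

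Nfkbia was at 6.89, 5.18, 7.01, 4.52 and 5.55 in the controls and at 13.02, 7.33 and 10.1 in the same GC tumors. GC tumor 3 lay just above the highest control and GC tumor 2 well above it. This was a log2 change of 0.77 ± 0.19 (SE), with adjusted p = 0.0427 by limma and 0.00467 by edgeR.

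Nfkb2 was at 0.576, 0.528, 0.47, 0.364 and 0.488 in the controls and at 1.01, 0.927 and 0.795 in the GC tumors. These GC values rest on 9, 33 and 26 UMIs. Its change on the log2 scale was 0.80 ± 0.19 (SE), with adjusted p = 0.0353 by limma and 0.0652 by edgeR. GC tumors 1 and 4, left out with 7 and 9 CD8 T cells, had 1.22 and 1.38 and so also lay above every control. In those 2 tumors Tnfaip3 was at 15.2 and 23.1 and Nfkbia at 7.85 and 6.39, of which 15.2 and 6.39 lay within the control range.

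For each of these 3 genes the exact permutation test gave p = 0.0179, the smallest that 3 against 5 tumors allow in the 2-sided test. The remaining 7 members did not pass by limma. DESeq2 also called 3 members, but with Nfkb1 (adjusted p = 0.0479) in place of Nfkb2 (0.105). Nfkb1 (0.50, adjusted p = 0.175), Nfkbiz (0.53, 0.152) and Tnip1 (0.49, 0.171) had positive limma log2 changes, and Rel (0.06), Rela (-0.29), Relb (-0.07) and Tnf (-0.03) lay nearer 0. The median log2 change over the 10 members was 0.48 and over all 6158 genes -0.09.

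The CD8 calls lay close to the threshold. Leaving out any 1 of the 5 control tumors left 0 of the 10 members past it, with limma adjusted p of 0.0728 to 0.104 for Tnfaip3, 0.0578 to 0.106 for Nfkbia and 0.0593 to 0.0947 for Nfkb2, and leaving out GC tumor 5 left Nfkb2 alone (adjusted p = 0.0335). In the CD8 T cells the summed level of 6 macrophage markers was 1.26 to 2.17 in control and 0.192 to 0.342 in GC tumors, and that of 5 monocyte markers 11.7 to 17.1 and 4.56 to 5.34. Of the latter, Ly6c2, Ccr2 and Plac8 were not confined to monocytes. Their median levels over the other control clusters were 1.66, 4.62 and 2.30. The summed level of 6 dendritic cell markers was higher, at 0.152 to 0.571 in control and 0.663 to 2.30 in GC tumors, with Ccr7, a gene that T cells also express, called higher by limma and edgeR (1.79 by limma), and the part of these markers in the result was not tested.

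The 3 CD8 clusters were mixed in like but not equal shares. CD8 2, where control levels of Tnfaip3 were highest among T cells, made up 24.3 to 34.7% of control and 33.3 to 50% of GC CD8 T cells per tumor. Set against the level that each tumor's own mix would give at control levels, an alternative chosen after seeing the data, Tnfaip3 was 0.43 higher (adjusted p = 0.202), Nfkbia 0.75 (0.159) and Nfkb2 0.72 (0.119) by limma, so that 0 members passed. The changes of these genes in the main test were 0.48, 0.77 and 0.80. Over all genes this setting called 21, against 309 in the main test. Within CD8 1 alone, Nfkb2 was 1.01 higher with adjusted p = 0.0254 by limma and was the single member called.

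In TAMs, Nfkbia rose and Nfkbiz fell after GC, 2 of the 9 members tested, against a background of 21.2% of 5988 genes called in either direction, 6.86% higher and 14.3% lower. TAMs thus had many more calls over all genes than CD8 T cells, and 2 of 9 is near that share. Tnf did not reach the minimum level for testing. Among all calls 32.4% were higher by limma and 62.3% by edgeR, and the median log2 change of all genes was -0.12.

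Nfkbia in TAMs was at 3.25, 3.12, 4.75, 3.89 and 5.63 in control tumors and at 6.74 and 7.40 in GC tumors 2 and 3, with no overlap, which was also true of 36.5% of all genes. The log2 change was 0.80 ± 0.21 (SE), with adjusted p = 0.0216 by limma and 0.00575 by edgeR. GC tumors 4 and 5, with 3 and 7 TAMs, had 3.66 and 3.25, within the control range. With tumors of at least 5 cells the change was 0.43 (limma adjusted p = 0.304), and without GC tumor 2 or GC tumor 3 the limma adjusted p was 0.0517 or 0.0774.

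Nfkbiz in TAMs was at 3.97, 3.90, 4.67, 4.21 and 4.17 in controls and at 3.44 and 2.63 in the GC tumors. Both GC values lay below all controls. The log2 change was -0.46 ± 0.13 (SE), or -0.34 relative to the median of all genes, with adjusted p = 0.0293 by limma and 0.120 by edgeR. Without GC tumor 3 it was -0.27 (limma adjusted p = 0.141).

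Tnfaip3 in TAMs was at 1.72, 1.64, 2.11, 2.32 and 1.74 in controls and at 2.17 and 5.11 in the GC tumors. GC tumor 2 lay within the controls and GC tumor 3 far above them. The log2 change was 0.79 with adjusted p = 0.0597 by limma and 0.0153 by edgeR, and it was 0.19 (limma adjusted p = 0.439) without GC tumor 3 and 1.39 (7.3e-05) without GC tumor 2.

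The other 6 members tested in TAMs had log2 changes between -0.23 (Rel) and 0.07 (Tnip1). The median over the 9 members was -0.03. With 2 against 5 tumors the exact permutation test cannot go below p = 0.0476, the value it gave for Nfkbia and Nfkbiz. Markers of other myeloid cells moved with the group, since 6 neutrophil markers summed to 1.03 to 1.32 in control and 1.96 to 3.82 in GC TAMs and 5 monocyte markers to 12.7 to 22.6 and 44.7 to 46.3, the latter mostly Chil3. Their part in the result was not tested.

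In neutrophils, 0 of the 10 members passed in either direction by limma or by edgeR, against a background of 4.83% of 4411 genes called by limma and 4.62% by edgeR, and 3 members (Tnfaip3, Tnf and Nfkb2) had an unadjusted limma p under 0.05, as did 18.3% of all genes. Nfkbia and Nfkbiz, both abundant in these cells, had 28.0 ± 7.93 and 24.5 ± 6.04 in controls (SD, n = 5) and 26.1 ± 1.20 and 29.2 ± 3.19 in GC tumors 2 and 3 (SD, n = 2). Their log2 changes were -0.06 and 0.29, with limma adjusted p = 0.925 and 0.524.

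Tnfaip3 in neutrophils was at 10.6, 5.86, 9.95, 11.6 and 7.67 in controls and at 13.8 and 16.9 in GC tumors. The groups did not overlap, nor did they for 22.2% of all genes. The log2 change of 0.77 had an adjusted p of 0.0865 by limma and 0.124 by edgeR. GC tumor 5, left out with 7 neutrophils, had 14.1. GC tumors 1 and 4, left out with 2 neutrophils each, had 4.38 and 0.758, below every control.

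Nfkb2 in neutrophils was at 1.17, 0.908, 0.785, 2.03 and 0.849 in controls and at 0.288 and 0.414 in GC tumors, with 4 UMIs in each of the latter. Both lay below all controls. The log2 change was -1.40, with limma adjusted p = 0.104.

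Tnf in neutrophils was at 0.468, 0.666, 1.12, 1.21 and 1.91 in controls and at 0.617 and 0 in GC tumors, from 4, 9, 20, 15 and 15 UMIs against 8 and 0. GC tumor 2 lay within the controls. The limma adjusted p was 0.0927 and that of edgeR 0.383. At this depth no change of Tnf was detectable in neutrophils.

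The neutrophil marker sum overlapped between groups (369 to 614 in control, 430 to 556 in GC). The summed monocyte markers were 1.19 to 3.71 in control and 65.9 to 69.7 in GC neutrophils, of which Chil3, a gene also expressed by neutrophils, gave 0.0418 and 64.5 on average.

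**Figure D2:**
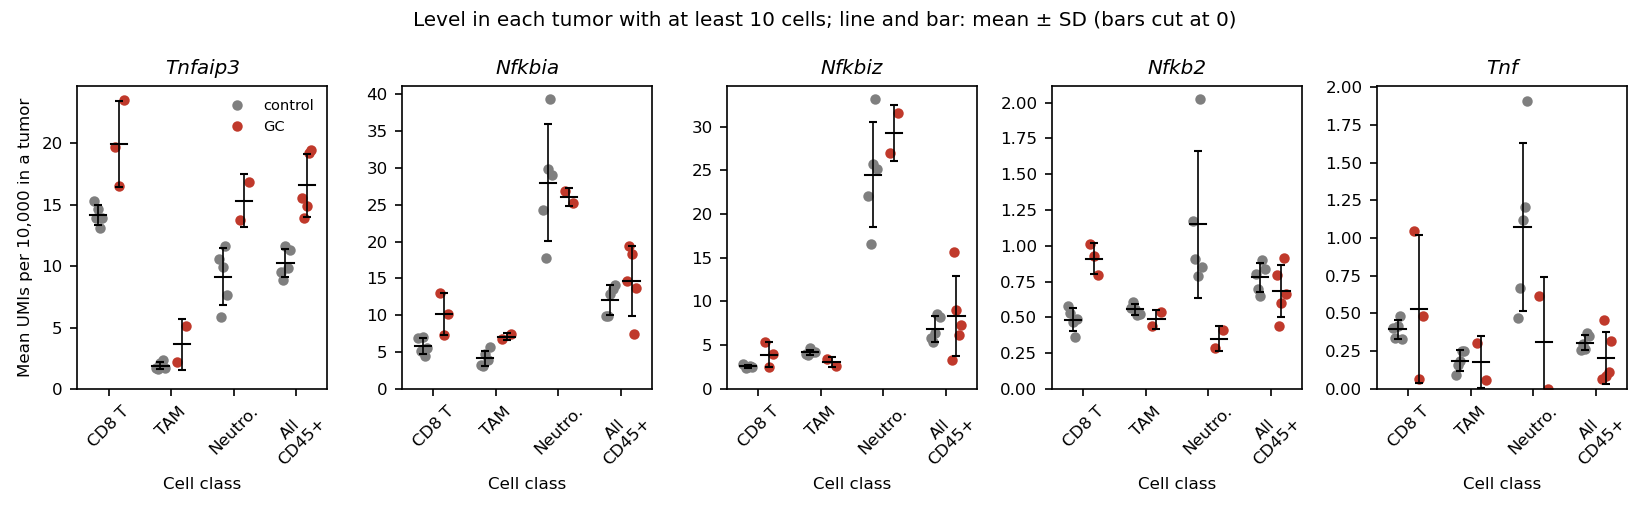
Level per tumor of Tnfaip3, Nfkbia, Nfkbiz, Nfkb2 and Tnf (UMIs per 10000) in CD8 T cells, TAMs, neutrophils and all CD45+ cells, with control and GC tumors side by side, each point a tumor and bars the mean ± SD. In CD8 T cells the GC points of Tnfaip3 (16.5 to 23.6) lie above the controls (13.1 to 15.3), and in all CD45+ cells the 5 GC points (13.9 to 19.4) lie above the 5 controls (8.91 to 11.7).

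Whether a member changed differently in 1 class than in another was tested as a difference of the log2 changes over 3421 genes, with tumor as a random block. Nfkb2 was the single member that passed, with a change 2.2 larger in CD8 T cells than in neutrophils (adjusted p = 0.00106 by limma), where 7.45% of all genes passed. It was higher in 3 of 3 GC tumors in CD8 T cells and lower in 2 of 2 in neutrophils. Between TAMs and neutrophils its difference was 1.24 (adjusted p = 0.0853, background 5.12%) and between CD8 T cells and TAMs 0.96 (0.413, background 0.76%). For Nfkbiz, the change in CD8 T cells exceeded that in TAMs by 0.99, with limma adjusted p = 0.127, and so the opposite directions of Nfkbiz in those classes were not shown to differ. The differences for Tnfaip3 lay between -0.31 and 0.02, and Tnf was not among the genes in this test.

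**Figure D3:**
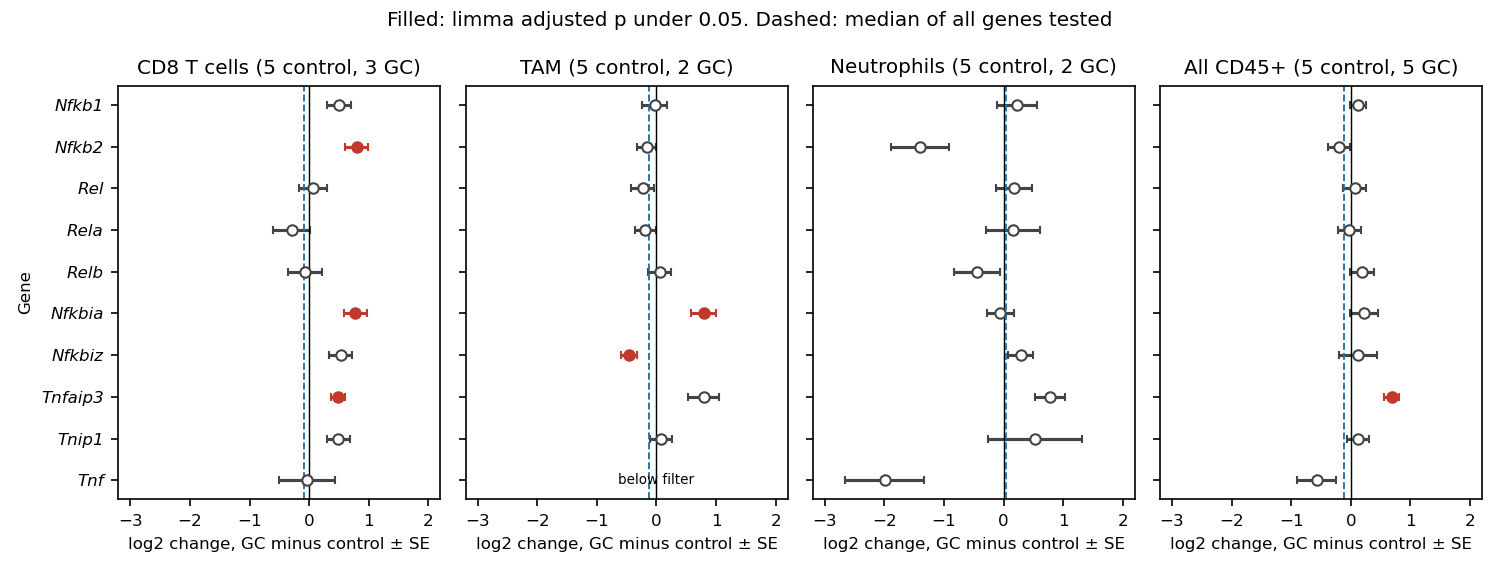
Log2 change ± SE, GC minus control, of the members in CD8 T cells, TAMs, neutrophils and all CD45+ cells, with filled points for limma adjusted p under 0.05 and a dashed line at the median change of all genes. Tnfaip3 is positive in all 4 panels (0.48, 0.79, 0.77 and 0.68) and filled in CD8 T cells and all CD45+ cells, while Nfkb2 is positive in CD8 T cells (0.80) and negative in neutrophils (-1.40).

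Monocytes and eosinophils each had a single GC tumor with 10 cells, whose spread was taken to be like that of the controls. The limma and edgeR p-values thus rest on the control spread alone, and with 1 against 5 tumors the exact permutation test cannot go below p = 0.167, so these values show how that tumor differed rather than an effect of the group. In monocytes 2 of the 10 members fell and 0 rose, against 23.9% of 5771 genes called in either direction and 18.2% called lower. Rel was at 4.54, 3.62, 4.50, 6.13 and 5.58 in controls and at 0.899 in GC tumor 3, from 15 UMIs. Its log2 change was -2.29, with adjusted p = 0.00108 by limma and 0.0279 by edgeR.

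GC tumors 2, 4 and 5 had 8, 1 and 2 monocytes and Rel levels of 2.27, 2.77 and 4.03, so that 1 of them lay within the controls. With tumors of at least 5 cells the change was -1.67 (limma adjusted p = 0.0101). Within Monocytes 1, the cluster of 18 of the 21 GC and 311 of the 449 control monocytes, pooled Rel was 3.59 (95% Poisson interval 3.41 to 3.79) in control and 1.82 (1.37 to 2.37) in GC cells. Nfkb2, at 0.194 from 3 UMIs in GC tumor 3, was 1.33 lower on the log2 scale (adjusted p = 0.0176 by limma, 0.248 by edgeR). In the monocytes the summed macrophage markers were 32.0 to 58.9 in control tumors and 36.1 in GC tumor 3, with 4 of 6 called lower by limma (1 by edgeR), and the summed monocyte markers were 44.8 to 54.5 and 82.0. Their part in the result was not tested.

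In eosinophils limma called 4 members higher (Nfkb1, Tnfaip3, Tnip1 and Nfkbiz) and 3 lower (Rel, Rela and Nfkb2), against 42.8% of 5342 genes called, and edgeR called 0 members, against 6.42%. DESeq2 called 2, against 3.2%, and 8 of the 10 had an unadjusted limma p under 0.05, as did 53.6% of all genes. The GC tumor held 10 eosinophils with 17244 UMIs in all, and the median change over all genes was -0.87. The eosinophil marker sum was 9.19 to 12.9 in control tumors and 6.14 in it, while the macrophage marker sum was 6.99 to 9.60 and 0 and the monocyte marker sum 6.37 to 8.47 and 0, and their part in the result was not tested. Tnfaip3 was at 37.9 there against 21.2 to 27.2 in controls, and Nfkbiz at 43.9 against 16.2 to 20.4. The direction of Tnfaip3 turned on UMI sums, with a log2 change of 0.66 by limma, -0.25 by edgeR and -0.03 by DESeq2.

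Over all CD45+ cells, where all 10 tumors could be compared, Tnfaip3 rose and the other 9 members did not pass, against a background of 6.15% of 6471 genes called in either direction and 2.33% called higher. It was at 9.55, 8.91, 11.7, 9.85 and 11.3 in control tumors and at 15.6, 13.9, 14.9, 19.2 and 19.4 in GC tumors. All 5 GC tumors exceeded all 5 controls, which was true of 3.6% of all genes. The mean rose 1.62-fold, from 10.3 ± 1.18 to 16.6 ± 2.57 (SD, n = 5 each), a log2 change of 0.68 ± 0.12 (SE) with adjusted p = 0.0109 by limma and 0.00425 by edgeR, and the exact permutation test gave p = 0.00794, the smallest that 5 against 5 allow.

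The call held when any 1 of the 10 tumors was left out, with changes of 0.62 to 0.74 and limma adjusted p up to 0.0451. Over all genes 37.9% of calls were higher by limma and 61.8% by edgeR, and 5.81% of genes were called higher by edgeR. Among the members that did not pass, the widest log2 change was that of Tnf (-0.57, limma adjusted p = 0.338), whose 764 control and 70 GC UMIs gave pooled levels of 0.238 and 0.218.

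A level over all leukocytes mixes the level within each cell type with the shares of the types. The level that each tumor's mix of the 16 clusters would give at control levels was therefore computed, as an alternative chosen after seeing the data. For Tnfaip3 it was 9.62 to 14.0 in GC tumors and 9.30 to 11.4 in controls. The observed level was 1.11, 1.44, 1.32, 1.70 and 1.54 times the expected one in GC tumors 1 to 5. In controls this ratio was 0.945 to 1.04, near 1 by construction, since the expected level was built from the controls. The 5 GC tumors lay above that range. This is a description only, because the control spread was narrowed by construction and the share of all genes that did so is not given here. Relative to the expected level the log2 change was 0.50 with adjusted p = 0.0788 by limma, and 0 members passed. Over all genes this setting called 227, against 398 in the main test.

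**Figure D4:**
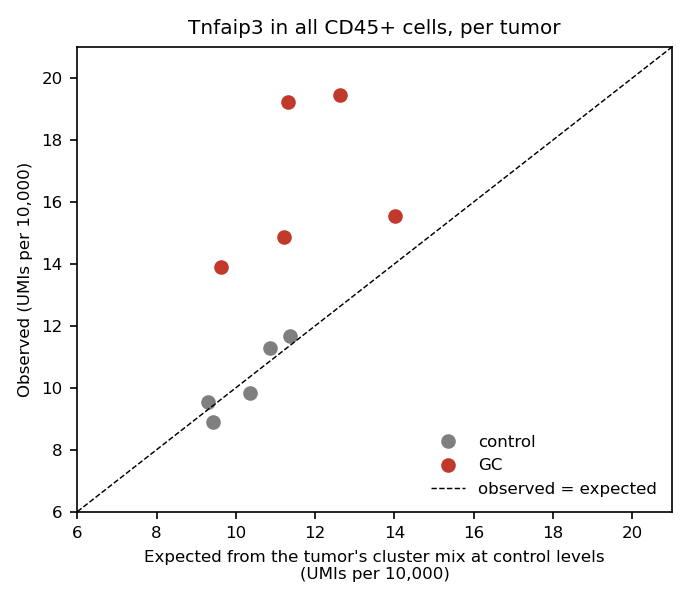
Observed Tnfaip3 level over all CD45+ cells of each tumor (y axis) against the level expected from the tumor's mix of clusters at control levels (x axis), both in UMIs per 10000, with a line where they are equal. The 5 controls lie near the line by construction, and the 5 GC tumors lie above it, at 1.11 to 1.70 times the expected level.

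In 6 further clusters no GC tumor held 10 cells, and levels were pooled over the cells of a group, with exact 95% Poisson intervals that cover counting error only. The intervals of control and GC were apart for 4 members in CD4, 5 in DC 1, 6 in DC 2, 2 in NK cells, 3 in Tregs and 3 in γδT cells. The GC cells numbered 10, 10, 9, 4, 14 and 11 in the same order. Over all genes with a pooled level of at least 0.2, averaged over the groups, the intervals were apart for 11.6% in CD4, 21.1% in DC 1, 17.9% in DC 2, 11.4% in NK cells, 17.2% in Tregs and 9.06% in γδT cells, and Tnf lay under that level in 4 of the clusters, all but CD4 and γδT cells.

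Nfkb1 was lower in the GC cells of DC 1, the cluster in which its control level was highest. The pooled level was 22.8 (22.1 to 23.6) in control and 6.68 (5.65 to 7.84) in GC cells. Per tumor it was at 25.5, 22.8, 23.9, 30.4 and 15.8 in controls and at 6.21, 10.2, 7.77, 8.75 and 3.11 in GC tumors of 1 to 3 cells. All 5 GC tumors lay below all 5 controls, which was true of 2.86% of 5424 genes.

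The other subunits of DC 1 did not follow. Rel was 26.0 (25.2 to 26.9) in control and 32.5 (30.2 to 35.0) in GC cells, and Relb per tumor was at 5.22 to 7.85 and 4.57 to 8.32. The dendritic cell markers summed to 58.2 in control and 63.8 in GC cells of DC 1.

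In Tregs both Nfkb1 and Rel were lower in every GC tumor than in any control, 2 of the 9 members above the minimum level, against 4.92% of 5976 genes. Nfkb1 was at 16.3, 17.8, 17.8, 14.8 and 15.7 in controls and at 7.36, 12.8, 7.38, 12.6 and 8.82 in GC tumors. Rel was at 10.3, 9.11, 9.40, 7.42 and 12.5 in controls and at 2.45, 4.01, 3.97, 2.52 and 3.17 in GC tumors.

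Pooled, Nfkb1 was 17.3 (16.8 to 17.7) against 8.98 (7.40 to 10.8) and Rel 9.02 (8.70 to 9.36) against 3.58 (2.61 to 4.78). The 4 Treg markers were all detected in both groups and summed to 144 in control and 111 in GC cells. Ikzf2 made up most of the sum (83.1 in control, 72.0 in GC cells). Il2ra was at 26.1 and 11.0, Ctla4 at 30.1 and 24.6 and Foxp3 at 4.94 and 3.58. In CD4 cells, Rel was lower in every GC tumor than in any control (at most 1.73 against at least 1.98), where 5.39% of 6027 genes were. However, 2 GC tumors with 1 CD4 cell each had 0 UMIs, and the pooled intervals overlapped (2.25 in control, 1.25 in GC cells). The GC tumors of DC 1, Tregs and CD4 held 1 to 6 cells of the cluster each, no test was run on them, and they were singled out after their values were seen.

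The inhibitors in these small clusters gave mixed values. Tnfaip3 was 15.7 (13.4 to 18.3) in GC against 10.1 in control CD4 cells, 4.23 (3.33 to 5.30) against 2.10 in DC 2 and 4.21 (3.41 to 5.16) against 2.79 in DC 1. It was 5.54 against 7.09 in NK cells and 13.5 against 11.9 in Tregs with overlapping intervals, and 16.01 against 16.04 in γδT cells. Nfkbia was 8.53 (6.85 to 10.5) against 3.86 in CD4, where 44 of its 89 UMIs came from a single cell of GC tumor 4, and 2.54 (1.85 to 3.4) against 6.38 in DC 2. Thus Tnfaip3 intervals were apart upward in 3 of the 6 clusters, and Nfkbia had both directions.

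Tnf in γδT cells gave 23 UMIs, a level of 0.757 (0.480 to 1.14), in control and 0 in 11 GC cells. The control UMIs were 7, 10, 5, 0 and 1 in tumors 1 to 5, a spread that the pooled interval leaves out. A count of 0 allows up to 0.387 there by the 3-UMI limit, or up to 0.476 by the 2-sided Poisson interval, which lies just under the control interval. In CD8 T cells, Tnf was at 0.402, 0.339, 0.415, 0.484 and 0.331 in controls and at 1.05, 0.066 and 0.481 in GC tumors 2, 3 and 5, from 48, 39, 116, 31 and 15 UMIs against 10, 3 and 16. The GC values fell on both sides of the controls, and the log2 change of -0.03 had a limma adjusted p of 0.975.

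The other genes of the pathway were taken from 4 lists, of other IκB proteins, kinases and adaptors, receptors, and target genes. In CD8 T cells 4 of the 51 tested rose and 3 fell by limma, against the 5.02% of all genes called, and 6 rose and 2 fell by edgeR. Birc3, the ubiquitin ligase cIAP2, was at 2.11 to 3.07 in controls and at 5.64, 4.14 and 4.56 in GC tumors (0.82, adjusted p = 0.0099 by limma). It was above all controls in 3 of 3 GC tumors, as were 5.7% of all genes tested.

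Irak2, a kinase of Toll-like and interleukin-1 receptor signaling, rose by 0.84 (limma adjusted p = 0.0275) in CD8 T cells. The fallen genes were Il1b (-1.94, 0.00188), which encodes interleukin-1β and is a myeloid rather than a T cell gene, Otulin (-1.44, 0.0227), a deubiquitinase of linear chains, and Ier3 (-1.36, 0.0402), an early response gene. None of the 4 other IκB genes and 5 receptors tested passed by limma in CD8 T cells (by edgeR 0 and 1), and 3 of the 27 kinases and adaptors rose.

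In neutrophils 2 of 60 pathway genes rose and 2 fell, by limma and by edgeR alike in number, against the 4.83% of all genes called by limma. Bcl2l1, which encodes the survival protein BCL-XL, was at 2.53 to 4.29 in controls and at 14.1 and 11.5 in GC tumors (1.74, adjusted p = 0.000547 by limma). Nfkbid, which encodes the nuclear IκB protein IκBNS, was at 5.06 to 8.11 and at 2.58 and 2.22 (-1.40, 0.00393). Sdc4, a heparan sulfate proteoglycan, rose by 3.34 (0.00917), and Il1b, at 160 to 210 in controls and 139 and 81.6 in GC tumors, fell by 0.76 on the log2 scale (0.0095). Of the 25 kinases and adaptors tested in neutrophils 0 passed by limma or edgeR.

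In TAMs 9 of 64 pathway genes rose and 11 fell by limma, against the background of 21.2% called, and 9 rose and 5 fell by edgeR. Among the 26 kinases and adaptors 1 rose and 7 fell by limma (1 and 2 by edgeR), including Tnip3, which encodes the A20-binding protein ABIN3 (-1.79, limma adjusted p = 0.000383). Among the 27 target genes 6 rose and 4 fell. The chemokine genes Cxcl10 (2.39, 0.00467) and Cxcl2 (1.17, 0.00749) rose, while Ccl4 (-1.11, 0.00817), the activation marker Cd83 (-2.23, 0.00132) and Marcksl1 (-2.38, 1.3e-05) fell. Target genes of the list thus moved in both directions in TAMs.

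Over all CD45+ cells 3 of 71 pathway genes rose and 7 fell by limma, against the 6.15% of all genes called, and 5 rose and 4 fell by edgeR. Bcl2l1 (1.24) and Gadd45b (0.99), a stress-induced gene, rose, and Tnip3 fell by 1.95 on the log2 scale. Il1a (-2.26), Il6 (-1.39) and Cd83 (-1.15) fell by limma but did not pass by edgeR. In monocytes 8 of 68 rose and 16 fell and in eosinophils 6 of 60 rose and 26 fell, each by limma from 1 GC tumor and against the 23.9% and 42.8% of all genes called there. By edgeR the counts were 6 and 2 in monocytes, which turns their balance, and 3 and 7 in eosinophils. The 6 with the widest changes were Cxcl10, Ccl5, Cxcl1, Cd83, Tnip3 and Cd40 in monocytes, of which Cxcl10 and Cd40 were at 0 in the GC tumor, and Cyld, Ccl3, Il1a, Clec4e, Cxcl10 and Birc2 in eosinophils, all at 0 in it.

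Dissociation and handling can induce immediate early genes, several of which respond to the same stimuli as NF-κB. Of 11 such genes, Dusp1, also a GC-induced gene, rose in CD8 T cells (1.18), TAMs (1.42) and neutrophils (0.56), Hspa1b fell in CD8 T cells (-1.26), Atf3, Fosb and Junb fell in neutrophils (-1.20, -1.10 and -0.65), and Egr1 fell (-1.65) and Jund rose (0.73) in TAMs, all by limma. Their part in the changes of the members was not tested.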

How the data were processed

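Single-cell RNA sequencing (10x Genomics 3′ chemistry) was run on live CD45+ cells of 10 tumors, with 17100 control and 3500 GC cells loaded. Per the labels and the study's methods, the authors aligned reads with Cell Ranger 7.1.0 to mm10 with introns included, assigned hashtags with Seurat 5.0.3, kept singlets, removed outlying cells and named 16 clusters after integration. The deposited values are the natural log of 1 + UMIs per 10000 UMIs of a cell, and the deposited cell table gives the UMI count and the mitochondrial percent of each cell. How strand was used in counting is not given in the sources used here, and Nfkb2 and Tnip1 overlap genes on the opposite strand. Whole UMIs were recovered for 100% of 10330441 values within 0.01. Intervals and limits cover counting error only.

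Tumors were taken from the hashtags, numbered by hashtag. Values were averaged on the linear scale per tumor and class. limma 3.58.1 (R 4.3.3, trended and robust) was fitted to log2(mean + 0.1) of genes averaging at least 0.2, over the tumors holding 10 or more cells of a class. Exact permutation tests were 2-sided. Fold changes on this scale understate changes of low genes. edgeR 4.0.16 and DESeq2 1.42.0 on UMI sums, pseudocount 1, no filter, minimums of 5 and 20 cells, median-of-ratios scaling, means of log values, single CD8 clusters and leaving out each tumor were the alternatives. The levels relative to the cluster mix were added after seeing the data. Besides the 10 members, the text names per class the 6 pathway genes with the largest absolute change among those past the threshold, Tsc22d3, Fkbp5 and Klf9, and the 3 genes most like each of 4 members, with immediate early genes and cell type markers given beside them. The values of 1 gene that this rule names in CD8 T cells are not reported here. The members, lists and tests were chosen with earlier results of these data known. Scripts were tested on simulated data. Promoter sequences are from RefSeq (GRCm38.p6). The tools also included Python 3.11.15, pandas 2.3.3, numpy 2.4.6, scipy 1.17.1 and matplotlib 3.10.9.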

Additional observations from a re-analysis of the deposited data

Results flagged for a closer look

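Over 70 groups of 4 or 5 tumors checked for a value far from the others, 3 were found, and chance alone marks about 1 in 20. Relb in CD8 T cells was 1.39 UMIs per 10000 in control tumor 5, against 0.991 to 1.06 in the other controls. Rela in neutrophils was 1.59 in control tumor 1, against 0.691 to 0.935 in the others. Rela over all CD45+ cells was 1.33 in GC tumor 1, which held 18 cells, against 0.606 to 0.714 in the other GC tumors.

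The change of Nfkb2 differed between cell classes, by 2.2 on the log2 scale between CD8 T cells and neutrophils (adjusted p = 0.00106 by limma). The neutrophil side rests on 4 UMIs in each of the GC tumors.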

How the results depend on the processing

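The number of members called in CD8 T cells, 3 as reported, was 0 with no filter, 1 with tumors of at least 5 cells, 1 in cluster CD8 1 alone, 0 in CD8 2 alone, 0 relative to the cluster mix, and 0 to 5 leaving out 1 tumor. It was 0 in neutrophils (1 with no filter, 0 to 1 leaving out 1 tumor), 2 in TAMs (1 with no filter, 1 to 3), 2 in monocytes (1 under edgeR and DESeq2, 2 to 3), 7 in eosinophils (3 with tumors of at least 5 cells, 0 under edgeR, 2 under DESeq2, 4 with means of log values, 6 to 7), and 1 in all CD45+ cells (0 relative to the cluster mix, 1 leaving out any tumor). Calls over all genes were 309 in CD8 T cells (167 with no filter, 195 at 5 cells, 604 at 20, 129 in CD8 2 alone, 21 relative to the cluster mix, 135 to 604 leaving out 1 tumor) and 213 in neutrophils (390 with means of log values, 105 to 241). They were 1270 in TAMs (673 under edgeR, 735 under DESeq2, 867 to 2117), 1379 in monocytes (887 at 5 cells, 299 under edgeR, 325 under DESeq2, 1028 to 2296), 2285 in eosinophils (536, 343 and 171 likewise, 1886 to 2646), and 398 in all CD45+ cells (607 at 20 cells, 608 under edgeR, 1080 under DESeq2, 227 relative to the cluster mix, 101 to 666). The members called on the difference between classes were the same in number without the tumor block. No paired analysis was possible because the tumor numbers are hashtag numbers and mark different mice in each group. Depth limited the GC values, with 18 to 111 cells per GC tumor and 3 UMIs behind the Nfkb2 call in monocytes and 0 behind that in eosinophils. The cause of each shift was not tested.

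Log2 changes that turned direction passed the threshold in neither setting, except Tnfaip3 in eosinophils (called by limma alone) and Nfkb1 in TAMs without GC tumor 2 (0.44, limma adjusted p = 0.0464). With pseudocount 1 they were in CD8 T cells Tnf 0.086, in eosinophils Tnf -0.0096. With tumors of at least 5 cells they were in CD8 T cells Rela 0.020 and Relb 0.24, in neutrophils Nfkb1 -0.19, Rel -0.32, Rela -1.01 and Nfkbiz -0.069, in TAMs Nfkb1 0.13, Rel 0.074 and Relb -0.10, in monocytes Relb 0.15 and Nfkbia 0.42, in eosinophils Relb -1.37 and Tnf -1.32. With tumors of at least 20 cells they were in CD8 T cells Rela 0.083 and Relb 0.31. Under edgeR they were in CD8 T cells Relb 0.37, in neutrophils Nfkb1 -0.011, Rel -0.072 and Rela -0.16, in TAMs Nfkb1 0.27 and Nfkb2 0.11, in eosinophils Nfkbia -0.068, Tnfaip3 -0.25 and Tnf -0.30, in all CD45+ cells Nfkb2 0.23. Under DESeq2 they were in CD8 T cells Relb 0.32 and Tnf 0.12, in neutrophils Rel -0.060 and Rela -0.16, in TAMs Nfkb1 0.28 and Nfkb2 0.12, in eosinophils Tnfaip3 -0.026 and Tnf -0.16, in all CD45+ cells Nfkb2 0.30. After median-of-ratios scaling they were in CD8 T cells Tnf 0.028, in TAMs Nfkb1 0.088, in all CD45+ cells Rela 0.070. With means of log values they were in CD8 T cells Relb 0.075 and Tnf 0.11, in neutrophils Nfkbia 0.19, in monocytes Nfkbiz 0.033, in all CD45+ cells Nfkb1 -0.055 and Rel -0.059. In cluster CD8 1 alone they were in CD8 T cells Rel -0.26, Rela 0.070 and Relb 0.25. In cluster CD8 2 alone they were in CD8 T cells Rela 0.26 and Relb 0.17. Relative to the cluster mix they were in all CD45+ cells Rel -0.020, Relb -0.040 and Nfkbiz -0.081, in CD8 T cells Rel -0.10 and Tnf 0.015. Leaving out 1 tumor, the changes that turned in any such setting ranged in CD8 T cells Rel -0.11 to 0.31, Rela -0.48 to 0.083, Relb -0.49 to 0.31 and Tnf -0.66 to 0.73, in neutrophils Rela -0.18 to 0.50, Nfkbia -0.21 to 0.076, Tnip1 -0.10 to 0.86 and Tsc22d3 -0.067 to 0.99, in TAMs Nfkb1 -0.50 to 0.44, Rel -0.60 to 0.15, Relb -0.069 to 0.18 and Tnip1 -0.11 to 0.26, in eosinophils Tnf -0.28 to 0.53, in all CD45+ cells Rel -0.10 to 0.20, Rela -0.21 to 0.044 and Nfkbiz -0.15 to 0.40.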
